A study of Homo sapiens with 6 samples.

Results

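FLI1, EWSR1 and TAF15 were followed across 6 RNA-seq libraries of Ewing sarcoma cells treated with THZ1. They were chosen by symbol, and all 3 were found once among the 27420 genes of the deposited table. A673 and SKNMC, 2 established Ewing sarcoma cell lines grown in the same medium, were each exposed for 6 h to the vehicle DMSO or to THZ1 at 50 or 200 nM. THZ1 is a covalent inhibitor of CDK7, a kinase that phosphorylates RNA polymerase II and takes part in starting transcription. The sample labels spell the second line both as SKNMC and as SKMNC, and no genetic change or agent other than THZ1 and DMSO is named for any group. Each condition has 1 library, so the spread between replicates of a line is unknown and no test was made within a line. The only test is a fit over both lines. Its error combines the spread between lines in their response with that of other genes.

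FLI1 encodes an ETS family transcription factor that normally acts in blood and endothelial cells. EWSR1 and TAF15 belong to the FET family, abundant RNA-binding proteins with a disordered N-terminal region that take part in transcription and splicing. In Ewing sarcoma a translocation joins the start of EWSR1 to the end of FLI1. The fusion gene is transcribed from the EWSR1 promoter and encodes EWS-FLI1, which keeps the FET activation region and the ETS DNA-binding domain. Reads of the fusion transcript can therefore be counted for EWSR1 from its first part and for FLI1 from its last part, and a gene-level value does not separate them from reads of the intact genes.

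The genes lie on different chromosomes, all on the plus strand of hg19. FLI1 (ENSG00000151702) spans chr11:128556430-128683162, which is 126733 bases. EWSR1 (ENSG00000182944) spans chr22:29663998-29696515, 32518 bases, and TAF15 (ENSG00000172660) spans chr17:34136459-34191619, 55161 bases. The most common form of the fusion, type 1, joins exon 7 of EWSR1 to exon 6 of FLI1. Which form each line carries was not read from these data. The reference bases at the end of the EWSR1 part are shown because they mark where a fusion read leaves that gene. The capital marks the last base, which begins a codon that the join would complete.
EWSR1 exon 7, last 30 bases (GRCh37, chr22:29683094-29683123, plus strand): gccaacagagcagcagctacgggcagcagA
In the GENCODE reference transcripts, exons 6 to 9 hold 2983 of the 3825 bases of FLI1 (78.0%), most of them in the untranslated end of exon 9. Exons 1 to 7 hold 862 of the 2400 bases of EWSR1 (35.9%). Joined, these parts have 1494 coding bases, which is 498 whole codons. A type 1 fusion transcript would therefore cover most of the length over which FLI1 was counted and a smaller part of the length of EWSR1.

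The bases before the RefSeq start of EWSR1 are shown because intact EWSR1 and the fusion share this start. The RefSeq promoter table has an entry for 1 of the 3 genes, EWSR1, and none for FLI1 or TAF15. Capitals mark GGAA or its reverse complement TTCC, the core letters bound by ETS factors, searched on both strands.
EWSR1, 250 bases before the RefSeq start (GRCh38.p14, chr22:29268018-29268267, plus strand): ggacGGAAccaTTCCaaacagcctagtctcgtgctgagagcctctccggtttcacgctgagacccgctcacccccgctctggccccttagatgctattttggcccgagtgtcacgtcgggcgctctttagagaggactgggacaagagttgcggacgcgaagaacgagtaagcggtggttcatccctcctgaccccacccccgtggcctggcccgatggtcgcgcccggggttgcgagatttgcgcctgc
The window holds 2 such letter groups, both near its upstream end. Of 35116 promoters cut the same way, 92.7% hold at least 1 and 76.5% hold at least as many. Its GC content was 62.8%, against a median of 58.0%, and it has 22 CG pairs against a median of 11. The letters TATAA are not in it, and 13.6% of all promoters have them.

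The labels were checked against marker genes. All 6 markers of Ewing sarcoma cells, with CD99 the highest, were above 1 FPKM (fragments per length of transcript, scaled to the mapped fragments of the library) in every library. Their summed level was 840 to 949 FPKM in A673 and 453 to 624 FPKM in SKNMC. Of 10 markers of blood and endothelial cells, which use FLI1 from its own promoter, 9 are listed in the table and 8 stayed under 1 FPKM in all 6 libraries. CD3E is listed at 0 in all of them. Their summed level was at most 0.190 FPKM in A673, and in SKNMC it was 8.01 to 13.3 FPKM, nearly all of it PTPRC, the leukocyte phosphatase CD45. In SKNMC, PTPRC was at 10.2 FPKM with DMSO, 7.90 at 50 nM and 13.1 at 200 nM, and at or under 0.0291 FPKM in A673. Its part in the FLI1 values of SKNMC was not tested, and FLI1 was in the same range in A673, where PTPRC was near 0. In bulk RNA, fewer cells of a type and less RNA per cell cannot be told apart. How deeply the libraries were sequenced is unknown, and the summed FPKM of the THZ1 libraries was 97.8% to 100.5% of that of their DMSO library.

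FLI1 was the member with the largest difference between DMSO and THZ1. In A673 it was at 31.5 FPKM with DMSO, 15.0 FPKM at 50 nM and 4.26 FPKM at 200 nM. The SKNMC libraries had 27.3 FPKM with DMSO, 15.2 FPKM at 50 nM and 4.56 FPKM at 200 nM. The order of the 3 conditions was the same in both lines, and the values of both lines lay close together at each dose.

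**Figure D1:**
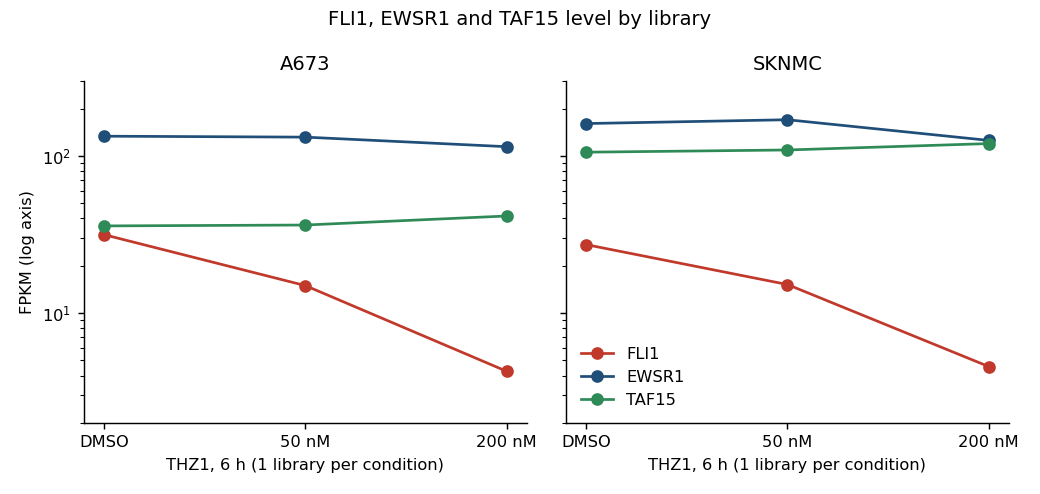
FPKM (log axis) of FLI1, EWSR1 and TAF15 in the DMSO, 50 nM and 200 nM libraries of A673 and SKNMC; each point is 1 library and lines join the libraries of a line. FLI1 goes from 31.5 to 4.26 FPKM in A673 and from 27.3 to 4.56 FPKM in SKNMC, while EWSR1 stays between 115 and 170 FPKM in all libraries and TAF15 is near 36 to 41 FPKM in A673 and 106 to 120 FPKM in SKNMC.

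At 50 nM, FLI1 kept 47.4% of its DMSO level in A673 and 55.7% in SKNMC. At 200 nM it kept 13.5% in A673, which is 7.41-fold lower, and 16.7% in SKNMC, 5.97-fold lower. From 50 to 200 nM, the level went to 28.5% of the 50 nM level in A673 and to 30.1% in SKNMC, a step of at least 2-fold that 7.44% and 8.39% of active genes took. Both doses of a line were compared with the same DMSO library, so an error in that library would enter both values.

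Over both lines, with the cell line as a block, limma gave FLI1 a mean log2 fold change of -0.92 ± 0.17 (SE) at 50 nM, with a Benjamini-Hochberg adjusted p of 0.000952. At 200 nM the mean was -2.49 ± 0.17 (adjusted p = 1.5e-06 in limma). FLI1 was lower in both lines at each dose and passed at both under every scaling tried. Passing was common, since 38.5% of the 10574 genes active in both lines were called lower and 5.12% higher at 50 nM, and 52.7% lower and 6.08% higher at 200 nM.

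Other genes were also lower, and the log2 fold changes, computed after adding 1 to each FPKM value, were read against all active genes, those above 1 FPKM with DMSO in the line. At 50 nM the FLI1 value was -1.03 in A673, where the median of 11077 active genes was -0.27 and 15.9% were at least 2-fold and 1.37% at least 4-fold lower. For SKNMC it was -0.80, short of 2-fold, beside a median of -0.32 over 11896 active genes, of which 15.8% were at least 2-fold and 1.24% at least 4-fold lower. The 50 nM value thus lay among those of many genes: 14.9% of active genes were lower than FLI1 in A673 and 23.0% in SKNMC. On which side of 2-fold it falls depends on the scaling of the libraries, since it was -0.79 in A673 when libraries were scaled to the 75th percentile of active genes, and -1.13 in SKNMC when they were scaled to the median ribosomal protein gene.

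At 200 nM, FLI1 stood near the low end of all active genes. Its log2 fold change was -2.63 in A673, beside a median of -0.40, and 25.3% of active genes were at least 2-fold and 4.7% at least 4-fold lower. The SKNMC value was -2.34, beside a median of -0.55, and 27.3% were at least 2-fold and 3.53% at least 4-fold lower. Only 99 active genes (0.894%) had a lower value than FLI1 in A673, and 171 (1.44%) in SKNMC. Of the 10574 genes active in both lines, 63 were at or under the FLI1 value in both at 200 nM, and 1375 at 50 nM. Among genes above 1 FPKM in the library itself, FLI1 went from rank 2992 of 11077 with DMSO to rank 7293 of 10341 at 200 nM in A673. SKNMC showed the same, from rank 3313 of 11896 to rank 7444 of 11064.

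EWSR1, the other partner of the fusion, was among the more abundant transcripts and changed little without scaling of the libraries. In A673 it was at 134 FPKM with DMSO, 132 FPKM at 50 nM and 115 FPKM at 200 nM. SKNMC cells had 161 FPKM with DMSO, 170 FPKM at 50 nM and 126 FPKM at 200 nM. Its log2 fold change at 50 nM was -0.020 in A673 and 0.080 in SKNMC, and both values change sign with the scaling, the first to 0.23 with the 75th percentile and the second to -0.29 with the ribosomal protein genes. The 200 nM values, -0.22 for A673 and -0.35 for SKNMC, both turn positive, at 0.15 and 0.21, with the 75th percentile. With the ribosomal protein genes they are further down, at -0.57 in A673 and -0.93 in SKNMC. EWSR1 was in no comparison at least 2-fold lower or higher. At 200 nM it was higher than the median of active genes by 0.18 in A673 and by 0.19 in SKNMC, and this remained so under each of 3 scalings, the smallest difference being 0.017 in SKNMC. In the limma fit over both lines, EWSR1 was at 0.030 ± 0.11 (SE) at 50 nM (adjusted p = 0.849) and at -0.29 ± 0.11 at 200 nM (adjusted p = 0.0491). The 200 nM value also passed with the common sum (-0.27, adjusted p = 0.0445 in limma). It passed with the ribosomal protein genes as well (-0.75, adjusted p = 0.000725 in limma). With the 75th percentile the 200 nM value turns to 0.18 and does not pass. More than 92% of genes above 1 FPKM were less abundant than EWSR1 in each library, from 93.0% in A673 at 200 nM to 96.5% in SKNMC with DMSO.

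TAF15, a FET protein first found with the TFIID complex and a rarer fusion partner in other sarcomas, was the member that set the lines apart. In A673 it was at 35.9 FPKM with DMSO, 36.3 FPKM at 50 nM and 41.5 FPKM at 200 nM. In SKNMC, TAF15 stood at 106 FPKM with DMSO, 109 FPKM at 50 nM and 120 FPKM at 200 nM. Every SKNMC library was above every A673 library. The log2 fold change at 50 nM was 0.018 in A673 and 0.046 in SKNMC, and at 200 nM it was 0.20 and 0.18, but all 4 values turn negative under the ribosomal protein scaling, down to -0.40 in SKNMC at 200 nM. Relative to the median of active genes it was higher at 200 nM by 0.60 in A673 and by 0.73 in SKNMC, and under 3 scalings this difference was 0.54 to 0.64 in A673 and 0.55 to 0.82 in SKNMC. The limma fit over both lines gave TAF15 0.032 ± 0.12 (SE) at 50 nM (adjusted p = 0.851) and 0.19 ± 0.12 at 200 nM (adjusted p = 0.203), and it passed at both doses with the 75th percentile, at 0.30 and 0.66. At 200 nM, 82.8% of active genes had a lower value than TAF15 in A673 and 88.2% in SKNMC. None of the 4 values reached 2-fold higher, which in A673 0.343% of active genes did at 50 nM and 0.126% at 200 nM, beside 0.471% and 0.462% of those active in SKNMC.

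**Figure D2:**
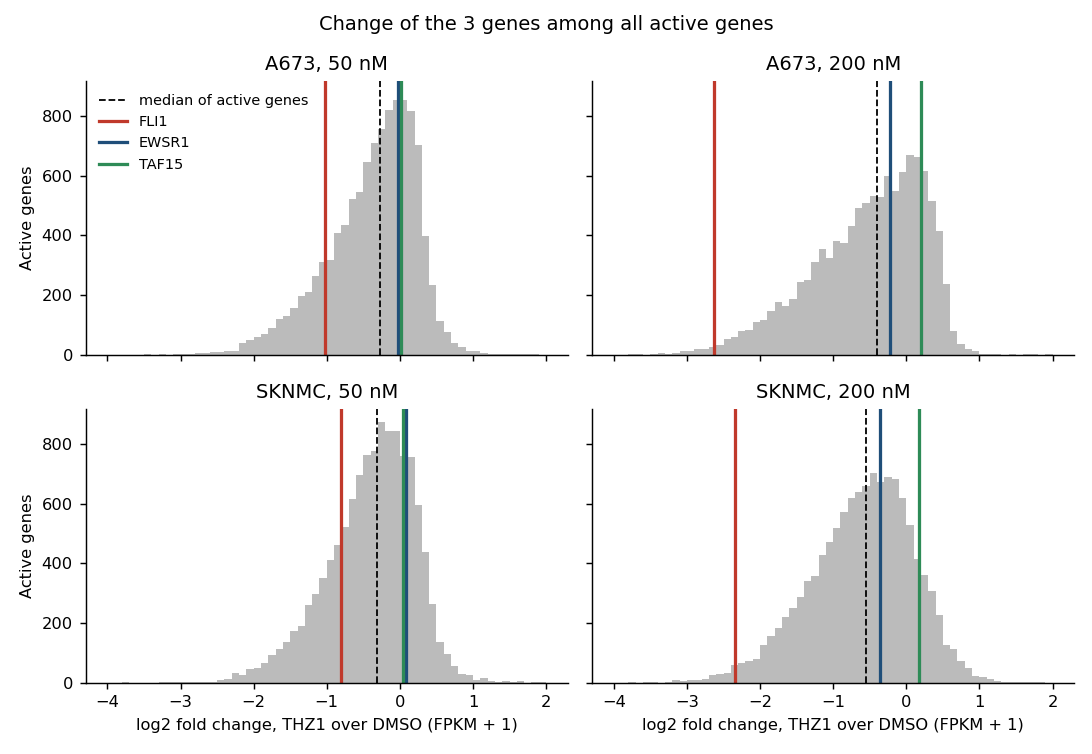
Histograms of the log2 fold change of THZ1 over DMSO (FPKM + 1) over active genes, in 4 panels for both lines and doses, with the number of genes on the y axis; coloured lines mark the 3 genes and the dashed line the median, and between 0 and 7 genes per panel lie outside the axis. FLI1 is at -1.03 and -0.80 at 50 nM, inside the main body, and at -2.63 and -2.34 at 200 nM, near its lower end, while EWSR1 and TAF15 lie above the median in each panel.

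The level of TAF15 in SKNMC was 2.95 times that in A673 with DMSO, 3.005 times at 50 nM and 2.89 times at 200 nM. Of 12399 genes active in either line, 15.0% were at least 2-fold and 4.02% at least 4-fold higher in SKNMC than in A673 with DMSO. The log2 ratio of TAF15, 1.53 with 1 added, was above 1 under all alternatives tried, from 1.08 to 1.71. EWSR1 in SKNMC was 1.20 times its level in A673 with DMSO, and FLI1 was 0.864 times. At 200 nM, FLI1 in SKNMC was 1.07 times its level in A673. Whether the EWSR1 and FLI1 values of the lines differ beyond their spread was not tested, and the EWSR1 ratio turns over, to -0.19 on the log2 scale, with the ribosomal protein scaling.

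The order of the 3 genes was the same in all 6 libraries, with EWSR1 highest and FLI1 lowest. In A673 with DMSO, FLI1 and TAF15 were neighbours in that order, at 31.5 and 35.9 FPKM, and a difference of this size cannot be told from the spread between libraries. At 200 nM in SKNMC, EWSR1 and TAF15 were neighbours at 126 and 120 FPKM. FPKM is per length, but the fusion does not cover the whole length of either partner, so the levels of FLI1 and EWSR1 are not amounts of 1 kind of transcript.

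A ratio of genes within a library does not depend on how that library was scaled. The A673 library with DMSO had 23.6 FPKM of FLI1 per 100 FPKM of EWSR1, followed by 11.3 at 50 nM and 3.72 at 200 nM. The SKNMC ratios were 16.9 with DMSO, 8.93 at 50 nM and 3.63 at 200 nM. The ratio was lower at each higher dose in both lines, and the lines were closest at 200 nM. Against TAF15, FLI1 was at 88.0 FPKM per 100 in the A673 library with vehicle, 41.2 at 50 nM and 10.3 at 200 nM. SKNMC had 25.8 per 100 with DMSO, 13.9 at 50 nM and 3.81 at 200 nM. TAF15 per 100 FPKM of EWSR1 was 26.8, 27.6 and 36.2 in the A673 libraries, in order of dose. For SKNMC it was 65.7, 64.2 and 95.4. The FET genes thus kept nearly the same ratio at 50 nM, and TAF15 was higher relative to EWSR1 at 200 nM in both lines.

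**Figure D3:**
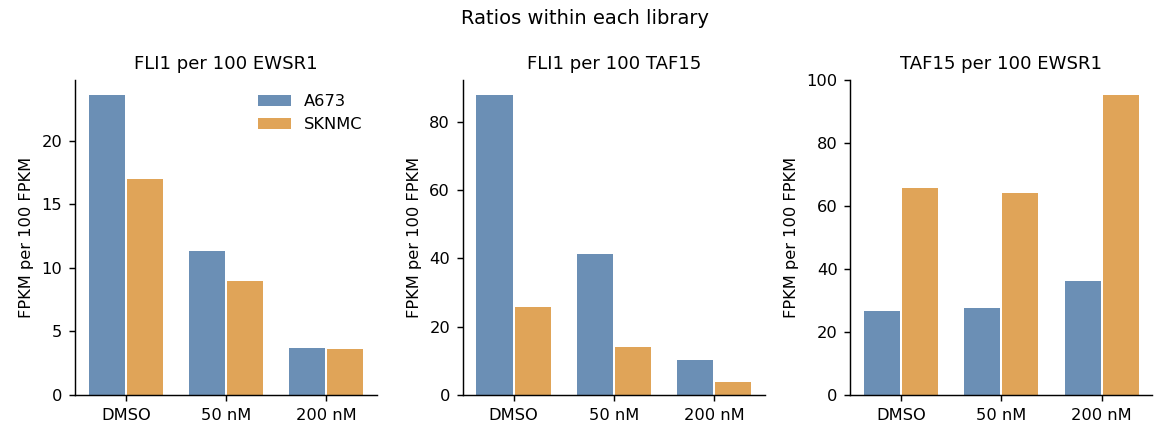
Ratios of FPKM values within each library, in FPKM per 100 FPKM of the second gene, for A673 and SKNMC with DMSO, 50 nM and 200 nM THZ1; each bar is 1 library. FLI1 per 100 EWSR1 goes from 23.6 to 3.72 in A673 and from 16.9 to 3.63 in SKNMC, and TAF15 per 100 EWSR1 is highest at 200 nM in both lines.

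How much of the EWSR1 value the fusion could hold was worked out from the transcript lengths. If every FLI1 fragment came from a type 1 fusion transcript with even coverage, that transcript would give 14.5 of the 134 FPKM of EWSR1 in A673 with DMSO (10.9%) and 12.6 of the 161 FPKM in SKNMC (7.80%). At 200 nM it would give 1.96 FPKM (1.71%) in A673 and 2.10 FPKM (1.67%) in SKNMC. EWSR1 as a whole was lower by 19.04 FPKM in A673 and by 35.2 FPKM in SKNMC at 200 nM, and the part assigned to the fusion was lower by 12.6 and 10.5 FPKM. The remainder would then be at 94.6% of its DMSO level in A673 and at 83.3% in SKNMC. These are sums on a stated assumption, and the share of FLI1 fragments that came from the fusion was not tested.

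Genes near each member on its chromosome were read to see whether the position of the gene goes with its change. Within 250 kb, 43 other genes are listed, and 16 of them were active in at least 1 line. Around FLI1 there are 8 genes, 2 of them active in each line, and none was at least 2-fold lower at 200 nM on the scale with 1 added to FPKM, beside 25.3% of all active genes in A673 and 27.3% in SKNMC. On the plain FPKM scale ETS1 in A673 and C11orf45 in SKNMC were past 2-fold. With 1 added, ETS1 in A673 also went past 2-fold over the scalings, down to -1.21. ETS1, a related ETS factor upstream, was active in A673 alone, at 7.51 FPKM with DMSO, 5.51 at 50 nM and 3.43 at 200 nM. ARHGAP32, a GTPase regulator, had log2 fold changes at 200 nM of -0.46 in A673 and -0.43 in SKNMC, the latter turning to 0.043 with the 75th percentile. C11orf45 was active in SKNMC alone, at 1.24 FPKM with DMSO and 0.563 at 200 nM. The potassium channel genes KCNJ1 and KCNJ5, which lie just past FLI1, were at most 0.0220 FPKM.

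RHBDD3, a rhomboid family gene on the minus strand, overlaps the first 201 bases of the EWSR1 span, so that both spans start from the same stretch in opposite directions. Exon 1 of the EWSR1 reference transcript starts past this overlap, at chr22:29664257 (GRCh37). RHBDD3 was at 34.3 FPKM with DMSO, 19.8 FPKM at 50 nM and 26.2 FPKM at 200 nM in A673. The SKNMC values were 29.9, 16.1 and 20.1 FPKM. Its lowest value was thus at 50 nM in both lines, where EWSR1 was at 98.6% and 105.8% of its DMSO level. GAS2L1, just past the end of EWSR1, showed the same order, at 19.5, 11.4 and 14.9 FPKM in A673 and 12.3, 6.66 and 7.73 FPKM in SKNMC. Whether counting used the strand is not given in the sources used here, so reads in the overlap of RHBDD3 and EWSR1 may be shared. ZNRF3, a ubiquitin ligase of Wnt receptors, was the 1 active neighbour of EWSR1 at least 2-fold lower at 200 nM without scaling. Its log2 fold changes were -1.61 in A673 and -1.75 in SKNMC, where 25.3% and 27.3% of all active genes were at least 2-fold lower. Over the scalings RHBDD3 and GAS2L1 in SKNMC went down to -1.09 and -1.07 at 200 nM, also past 2-fold. The other active neighbours, KREMEN1, AP1B1, NEFH and THOC5 in both lines and EMID1 in SKNMC alone, had values between -0.33 and 0.41 at 200 nM, and those of KREMEN1, AP1B1 and THOC5 in both lines and of NEFH and EMID1 in SKNMC change sign with the scaling.

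Around TAF15, C17orf66 overlaps its end on the minus strand and was at most 0.0308 FPKM, and most of the 24 neighbours, including a cluster of CCL chemokine genes, were at or near 0. The lincRNA RP11-1094M14.11 was at least 2-fold lower at 200 nM in both lines, with -2.07 in A673 and -1.83 in SKNMC. Of all genes active in both lines, 20.4% were at least 2-fold lower in both. AP2B1, an adaptor of clathrin coats, was at 0.37 and 0.016, RASL10B was at -0.38 and -0.89, and RDM1, active in SKNMC alone, was at -0.11, and the SKNMC values of AP2B1 and RDM1 change sign with the scaling.

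**Figure D4:**
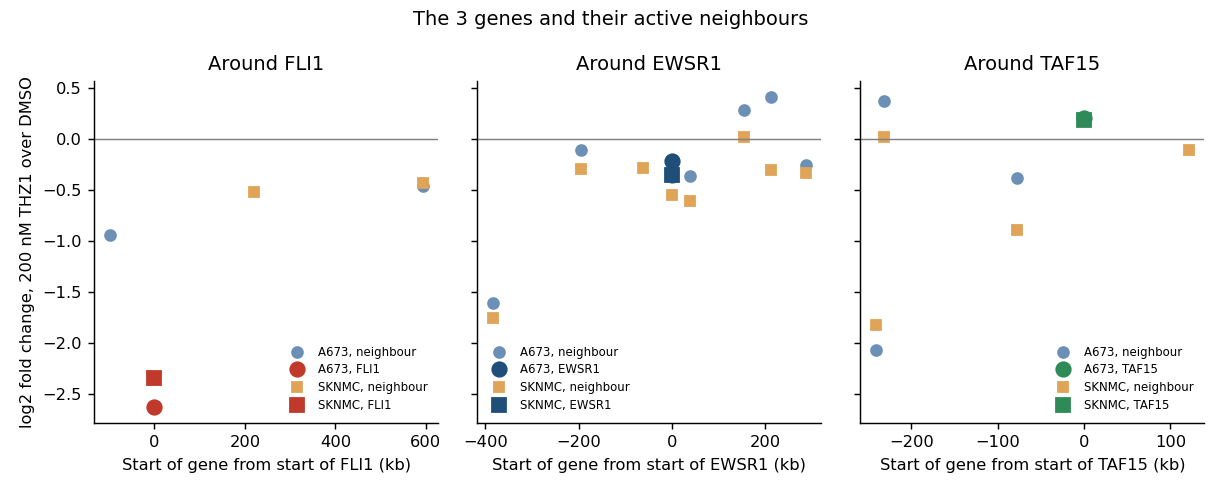
Log2 fold change at 200 nM THZ1 over DMSO (FPKM + 1) of FLI1, EWSR1 and TAF15 and of active genes reported here within 250 kb, against the distance in kb of the start of each gene from the start of the member; circles are A673 and squares SKNMC, 1 library each. FLI1, at -2.63 and -2.34, lies below all its active neighbours, while the lowest neighbour of EWSR1 is ZNRF3 and that of TAF15 is RP11-1094M14.11.

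Genes known to be activated by EWS-FLI1 were read beside FLI1. All 21 on the list were active in both lines. At 50 nM 1 of them in A673 and 4 in SKNMC were at least 2-fold lower, beside 15.9% and 15.8% of all active genes. At 200 nM 6 were in A673 and 9 in SKNMC, beside 25.3% and 27.3% of all active genes, and none was at least 2-fold higher without scaling. The median log2 fold change at 200 nM was -0.46 in A673 and -0.78 in SKNMC, beside -0.40 and -0.55 for all active genes. With other scalings the 2-fold lower count at 200 nM ranged from 3 to 7 in A673 and from 5 to 14 in SKNMC. CCK in SKNMC at 200 nM went up to 1.18, past 2-fold higher, over the scalings. At least 2-fold lower in both lines at 200 nM were NR0B1, NKX2-2, E2F3, BCL11B, DKK2 and NPY1R, where 20.4% of genes active in both lines were. With the 75th percentile the call ends for BCL11B in both lines (-0.83 and -0.66) and for DKK2 (-0.72) and NPY1R (-0.92) in A673. NR0B1, an orphan nuclear receptor regulated by EWS-FLI1 through GGAA repeats, had A673 values of 58.6 FPKM with DMSO, 17.6 at 50 nM and 7.97 at 200 nM. Those of SKNMC were 25.2, 8.20 and 8.10 FPKM. NR0B1 was lower than FLI1 relative to DMSO at 50 nM, with log2 fold changes of -1.68 and -1.51. The cell cycle factor E2F3 was at -0.12 in A673 and -0.66 in SKNMC at 50 nM and at -2.02 and -2.26 at 200 nM, the first of these turning to 0.12 with the 75th percentile. The homeobox factor NKX2-2 was at -1.78 and -1.64 at 200 nM, the Wnt antagonist DKK2 at -1.07 and -2.61, the neuropeptide receptor NPY1R at -1.27 and -1.59, and the zinc finger factor BCL11B at -1.13 and -1.18. The most abundant genes on the list, CAV1 and CCND1, did not reach 2-fold without scaling. In SKNMC both passed 2-fold lower at the lowest value over the scalings. These values at 50 and 200 nM were -1.27 and -1.15 for CAV1 and -1.28 and -1.45 for CCND1. CCND1, cyclin D1, was at 711, 461 and 505 FPKM in A673 and at 370, 197 and 202 FPKM in SKNMC. CAV1, a membrane scaffold gene, was at 1577, 1389 and 1470 FPKM in A673, where its sign at both doses turns with the 75th percentile, and at 485, 259 and 327 FPKM in SKNMC.

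Genes known to be repressed by EWS-FLI1 were not higher as a group. Of 8 genes active in A673 and 6 in SKNMC, 4 in each line were at least 2-fold lower at 200 nM without scaling. None was then at least 2-fold higher at either dose. All active genes had 25.3% and 27.3% at least 2-fold lower, and other scalings gave 3 to 5 of these genes in A673 and 2 to 4 in SKNMC. The medians were -1.06 in A673 and -1.20 in SKNMC, beside -0.40 and -0.55 for all active genes. DKK1, a secreted Wnt inhibitor, was lower in both lines, at 23.2, 1.95 and 1.66 FPKM in A673 and at 18.2, 3.41 and 1.16 FPKM in SKNMC. LOX, which crosslinks collagen, was at 20.2, 21.3 and 19.9 FPKM in A673 and at 21.7, 27.7 and 38.5 FPKM in SKNMC. The sign of its change turns with the scaling except in SKNMC at 200 nM. There its log2 fold change was 0.80 without scaling and went up to 1.36, past 2-fold higher, over the scalings.

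Among 11 active genes for proteins that bind, modify or turn over EWS-FLI1, none was at least 2-fold lower at 50 nM in either line, and 6 in A673 and 5 in SKNMC were at 200 nM. The share of all active genes in A673 and SKNMC was 15.9% and 15.8% at 50 nM and 25.3% and 27.3% at 200 nM. The count at 200 nM ranged from 3 to 6 in A673 and from 4 to 8 in SKNMC over the scalings. The medians at 200 nM were -1.01 in A673 and -0.74 in SKNMC, beside -0.40 and -0.55 for all active genes. The 5 that were lower in both lines were the chromatin remodelling subunit ARID1A, the acetyltransferase EP300, the BRCA1 partner BARD1, and SPOP and TRIM8, which act in ubiquitin ligases. At 200 nM, 20.4% of all genes active in both lines were at least 2-fold lower in both. With the 75th percentile the call ends for TRIM8 (-0.67) and BARD1 (-0.82) in A673 and for ARID1A in SKNMC (-0.92). SPOP was at 21.3, 12.6 and 6.55 FPKM in A673 and at 33.1, 23.0 and 9.69 FPKM in SKNMC. At 50 nM, ARID1A was at 0.51 in A673 and 0.049 in SKNMC, the latter changing sign with the scaling, and at -1.38 and -1.44 at 200 nM. EP300 was at -1.53 and -1.61 at 200 nM, BARD1 at -1.09 and -1.44, and TRIM8 at -1.01 and -1.68. The helicase DHX9 and the demethylase KDM1A, the most abundant of the list, were at 0.15 and -0.22 in A673 and at -0.018 and -0.52 in SKNMC at 200 nM, and all 4 of these change sign with the scaling.

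Of the 4 other ETS genes that EWSR1 is fused to in Ewing sarcoma, ERG was at most 0.0286 FPKM in all libraries. ETV1 was at 22.0, 12.8 and 10.5 FPKM in A673 and at 2.98, 1.61 and 0.585 FPKM in SKNMC. Of the 2 genes of this list active in both lines, ETV1 was the 1 at least 2-fold lower in both at 200 nM. Of all genes active in both lines, 20.4% were. In A673 ETV1 was just past the threshold, and the 75th percentile ends the call there (-0.66). ETV4 was at 6.11, 3.27 and 3.66 FPKM in A673 and at most 0.281 FPKM in SKNMC. FEV was at 3.55, 3.16 and 2.97 FPKM in A673 and at 1.67, 0.346 and 0.0664 FPKM in SKNMC. These 4 genes were thus at or under 2.98 FPKM in every SKNMC library.

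The TFIID subunits, to which TAF15 is linked, were all active in both lines, and 5 of 16 in A673 and 3 of 16 in SKNMC were at least 2-fold lower at 200 nM. These counts stand beside 25.3% and 27.3% of all active genes, and over the scalings they ranged from 3 to 6 in A673 and from 3 to 8 in SKNMC. Their median was -0.53 in A673 and -0.66 in SKNMC. TBP, the TATA-binding protein, was at 11.3, 6.70 and 2.49 FPKM in A673 and at 15.0, 8.39 and 3.49 FPKM in SKNMC. TAF5 was at -2.26 in A673 and -1.77 in SKNMC at 200 nM, and TAF4 at -1.77 and -1.54. The most abundant, TAF9 and TAF10, were at -0.37 and 0.21 in A673 and at -0.74 and 0.20 in SKNMC. TAF15, at 0.20 and 0.18, was close to TAF10, and both turn negative with the ribosomal protein scaling.

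RNA-binding proteins that work with the FET family differed among themselves. None of 5 genes for U1 snRNP proteins and splicing factors of the fusion transcript was at least 2-fold lower in any comparison, and their medians at 200 nM were -0.026 in A673 and 0.16 in SKNMC. None of 4 paraspeckle genes was either, and their medians were 0.11 and 0.14. Of all active genes in A673 and SKNMC, 15.9% and 15.8% were at least 2-fold lower at 50 nM, and 25.3% and 27.3% at 200 nM. Lists of 5 and 4 genes are too small to set a count of 0 apart from these shares. Both lists were higher than the median of all active genes by 0.30 to 0.79 under the scalings tried at 200 nM, while the sign of their own medians turns with the scaling, and that by ribosomal protein genes puts 1 of the 5 at least 2-fold lower in SKNMC. HNRNPH1, needed for splicing of some EWS-FLI1 transcripts, was between 280 and 306 FPKM in A673, with no constant sign across scalings, and at 335, 422 and 516 FPKM in SKNMC. SNRPA, a U1 protein gene named after its values were seen, was lower than DMSO at both doses, at -0.44 and -0.33 in A673 and at -0.44 and -0.58 in SKNMC, and the 200 nM value in A673 turns to 0.045 with the 75th percentile. The U1 protein gene SNRPC was at 0.37 and 0.18 at 200 nM, and the paraspeckle genes SFPQ and NONO were at 0.13 and 0.17 in A673 and at 0.36 and -0.065 in SKNMC, and of these 6 values only that of SNRPC in A673 keeps its sign under every scaling. RBM14, named after its values were seen, was at 41.6 FPKM with DMSO and 97.6 FPKM at 50 nM in SKNMC. Without scaling it was the 1 gene of these lists at least 2-fold higher, beside 0.471% of active genes. The ribosomal protein scaling ends this call. HNRNPH1 in SKNMC at 200 nM went up to 1.19, past 2-fold higher, over the scalings.

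**Figure D5:**
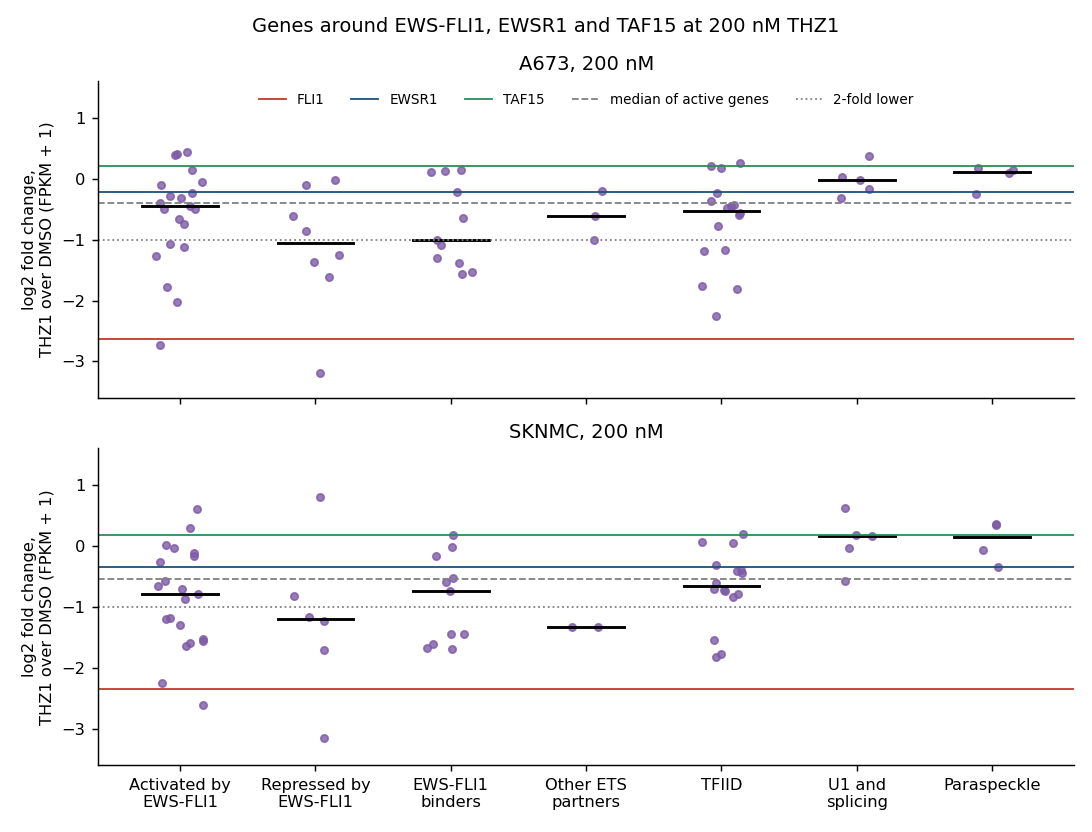
Log2 fold change at 200 nM THZ1 over DMSO (FPKM + 1) of the active genes of 7 lists in A673 and SKNMC; each point is a gene, black bars are list medians, coloured lines the 3 members, the dashed line the median of active genes and the dotted line 2-fold lower. FLI1, at -2.63 and -2.34, lies below nearly all points, and the medians of the U1, splicing and paraspeckle genes lie above those of all active genes.

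The genes with the most similar pattern over the 6 libraries were found by the root mean square difference of log2(FPKM + 1), centred per gene, among 9332 other genes above 1 FPKM in all libraries. Nearest to FLI1 were NOP16, a nucleolar protein, CENPL, a kinetochore protein, CXXC5, TRIM26 and MIEF1, at differences of 0.091 to 0.17. NOP16 was at 53.6, 23.9 and 7.66 FPKM in A673 and at 47.8, 28.9 and 9.41 FPKM in SKNMC. Nearest to EWSR1 were MMGT1, GGA2, TSN, CCDC132 and PPP6R1, at 0.023 to 0.054. Among the 5 nearest to TAF15 were HYI, SMIM4, PHKA2 and COMMD6, at 0.052 to 0.092. Each of these was also higher in SKNMC than in A673, as HYI at 3.55 FPKM in A673 and 13.3 FPKM in SKNMC with DMSO. The selection by pattern favours this, since TAF15 itself differs between the lines. The members were not near each other, with differences of 0.92 between FLI1 and EWSR1, 1.36 between FLI1 and TAF15 and 0.68 between EWSR1 and TAF15.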

How the data were processed

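Read pairs of 100 bp came from TruSeq libraries run on a HiSeq2000. The authors mapped them with STAR to hg19, using Ensembl 75 genes, and deposited FPKM values per gene. The paper names StringTie for FPKM, and the submitters' processing notes name Cufflinks. The authors' deposited log2 fold change columns were not used. Values were deposited for 20311 protein-coding and 7109 lincRNA genes. FPKM holds no counts: no step of whole reads was found in the low values, where the commonest ratio between libraries was shared by at most 0.362% of genes, so depth is unknown and no counting interval is given.

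FPKM is a share of a library, so an even loss of RNA leaves no trace. Deposited starts are printed with 1 added, since 14261 then match the annotation, against 416 as deposited. Active genes were above 1 FPKM with DMSO, and folds of 2 and 4 were used. The named genes were the members, genes overlapping them or active within 250 kb, list genes at least 2-fold changed in both lines at 200 nM or among the 2 most abundant, and the 5 nearest patterns. Members and lists were chosen with earlier results of these data known. Alternatives were pseudocounts of 0.1 and 0, 3 scalings (common sum, 75th percentile of active genes, median of ribosomal protein genes), other filters and a 1.5-fold threshold. A fit of log2(FPKM + 1) on dose with the cell line as a block, over genes active in both lines, was added after seeing the data (limma 3.58.1 in R 4.3.3, trend, Benjamini-Hochberg adjustment, threshold 0.05). It has 2 residual degrees of freedom and takes the lines as replicates of the response. The variance of each gene was moderated with that of other genes, at 9.48 prior degrees of freedom without scaling. Steps were tested on simulated data. Exons came from GENCODE 44 on GRCh37 and the promoter from RefSeq. Python 3.11.15, numpy 2.4.6 and pandas 2.3.3 were used. Some genes and sequences that these rules select are not reported here.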

Additional observations from a re-analysis of the deposited data

Results flagged for a closer look

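For 4 genes of the lists, both THZ1 libraries of one line were higher than DMSO and both of the other were lower, and with 1 library per condition this contrast of the lines was not tested. The log2 fold change of HNRNPH1 was higher in SKNMC than in A673 by 0.46 at 50 nM and by 0.65 at 200 nM, and that of the gut hormone gene CCK by 0.30 and 0.66. For the kinase gene PRKCB, SKNMC minus A673 was -0.25 at 50 nM and -0.52 at 200 nM, and for the remodelling subunit SMARCC1 it was -0.28 and -0.27. For each of the 4 genes, the sign in at least 1 line changes with the scaling. FLI1 and TAF15 had the same sign in both lines at each dose, and EWSR1 did at 200 nM.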

How the results depend on the processing

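A log2 value within a line was counted as moved where it crossed 2-fold or shifted by over 1.5-fold, and as reversed where its sign changed, since no replicate spread exists. Dividing by the 75th percentile or by the ribosomal protein genes shifted the median of active genes in A673 by 0.22 and -0.20 (50 nM) and 0.32 and -0.29 (200 nM), and in SKNMC by 0.25 and -0.27 (50 nM) and 0.48 and -0.40 (200 nM). FLI1 kept a negative log2 fold change under every alternative, from -1.24 to -0.79 in A673 and from -1.13 to -0.53 in SKNMC at 50 nM, and from -2.91 to -2.32 and from -2.70 to -1.88 at 200 nM. It crossed 2-fold at 50 nM in A673 with the 75th percentile (-0.79) and in SKNMC with the ribosomal protein genes (-1.13).

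EWSR1 reversed in A673 at 50 nM with the common sum (0.0016) and the 75th percentile (0.23), at 200 nM with the 75th percentile in A673 (0.15) and SKNMC (0.21), and with the ribosomal protein genes in SKNMC at 50 nM (-0.29) and between the lines (-0.19). TAF15 reversed with the ribosomal protein genes, to -0.21 and -0.14 in A673 and -0.32 and -0.40 in SKNMC at 50 and 200 nM.

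With a 1.5-fold threshold, 3527 and 4550 active genes were lower in A673 and 3985 and 5714 in SKNMC, and 197, 188, 289 and 334 were higher. In SKNMC at 200 nM, 1672 were at least 2-fold lower with the 75th percentile and 5588 with the ribosomal protein genes. The 2-fold higher counts, in the order A673 at 50 and 200 nM and SKNMC at 50 and 200 nM, were 85, 112, 155 and 532 with the 75th percentile, 18, 5, 17 and 9 with the ribosomal protein genes, and 60, 39, 92 and 93 with a pseudocount of 0.1. Without a filter they were 73 and 69 in A673 and 110 in SKNMC at 200 nM. Over the 7 pathway lists, the genes lower by 1.5-fold were 23 and 22 at 50 nM in A673 and SKNMC and 36 in SKNMC at 200 nM, and those higher by 1.5-fold were 1, 2 and 3. With the ribosomal protein genes, 9, 14 and 37 were 2-fold lower in these comparisons, against 4, 6 and 23 without scaling, and 0 higher in SKNMC at 50 nM. With the 75th percentile, 12 were lower in A673 and 3 higher in SKNMC at 200 nM. Centred within each line, 2 of the 5 patterns nearest to FLI1 and 0 of those nearest to TAF15 were kept. 

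In the limma fit with the cell line as a block, chosen after seeing the data, FLI1 passed at both doses under every scaling. With the 75th percentile EWSR1 was at 0.30 (passing) and 0.18 at 50 and 200 nM, and TAF15 at 0.30 and 0.66 (both passing). With the ribosomal protein genes EWSR1 was at -0.27 and TAF15 at -0.26 at 50 nM, and TAF15 at -0.27 at 200 nM, none passing. EWSR1 at 200 nM passed with the ribosomal protein genes (-0.75) and with the common sum (-0.27). The genes called lower were 2656 and 3381 with the 75th percentile at 50 and 200 nM, against 4073 and 5573 without scaling, and 8066 at 200 nM and 6003 at 50 nM with the ribosomal protein genes. Those called higher were 1877 and 2611 with the 75th percentile and 101 and 38 with the ribosomal protein genes, against 541 and 643. The causes of these shifts were not tested.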
